A study of Rattus norvegicus with 9 samples.

Results

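The receptors, Smads and Id targets of bone morphogenetic protein (BMP) signalling were compared between skull and limb bone of the rat. The 10 genes were Bmpr1a, Bmpr2, Acvr1, Smad1, Smad4, Smad5, Smad6, Id1, Id2 and Id3. They were chosen by name, with earlier results of these data known. They were read through every probe set that the platform annotation assigns to 1 of them alone, which gave 22 of the 31042 probe sets tested and 10 of the 14217 genes named. The skull group was calvaria, the vault of the skull, on 4 arrays, and the limb group was ulna, a long bone of the forelimb, on 5 arrays. Both came from male CD rats weighing about 110 g, with no treatment or genetic change named for either, and asked whether bones of different origin and mechanical loading differ in basal expression. The authors describe removing soft tissue and epiphyses or sutures before RNA was extracted. Each RNA extract was pooled from several rats, so a replicate is a pool of animals and the spread between single rats was not measured.

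BMPs are secreted ligands that bring together type I receptors, such as Bmpr1a and Acvr1, and type II receptors, such as Bmpr2. The type II kinase activates the type I kinase, which phosphorylates Smad1 and Smad5. These join Smad4, move to the nucleus and switch on target genes, among them Id1, Id2 and Id3, whose proteins bind and block basic helix-loop-helix factors. Smad6 is itself induced by the pathway and inhibits it. In bone the pathway is best known for directing mesenchymal cells towards the osteoblast.

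The Id genes lie at the transcriptional end of this pathway, so the start regions of all 3 are shown. Each runs 5′ to 3′ on the strand of the gene, from 250 bases before the start of the gene to 50 bases after it, as given by RefSeq on the GRCr8 build. Capitals mark a match on either strand to a Smad-binding motif, of which the general element CAGAC and the GC-rich elements GGCGCC and, for BMP-activated Smads, GCCGNCGC were searched. None of these motifs contains another.
Id1, chr3:161671314-161671613, plus strand: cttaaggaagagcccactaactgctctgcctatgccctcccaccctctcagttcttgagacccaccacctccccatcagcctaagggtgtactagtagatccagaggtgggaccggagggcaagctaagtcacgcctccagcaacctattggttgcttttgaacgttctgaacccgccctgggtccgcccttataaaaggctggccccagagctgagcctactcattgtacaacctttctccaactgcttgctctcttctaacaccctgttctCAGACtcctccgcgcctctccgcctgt
Id2, chr6:47470946-47471245, minus strand: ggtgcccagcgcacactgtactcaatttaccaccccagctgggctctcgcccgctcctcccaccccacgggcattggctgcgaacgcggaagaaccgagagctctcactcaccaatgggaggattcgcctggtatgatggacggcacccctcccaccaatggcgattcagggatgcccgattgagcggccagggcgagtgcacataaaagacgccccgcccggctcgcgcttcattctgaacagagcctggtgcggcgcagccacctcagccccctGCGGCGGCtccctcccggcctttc
Id3, chr5:153656041-153656340, plus strand: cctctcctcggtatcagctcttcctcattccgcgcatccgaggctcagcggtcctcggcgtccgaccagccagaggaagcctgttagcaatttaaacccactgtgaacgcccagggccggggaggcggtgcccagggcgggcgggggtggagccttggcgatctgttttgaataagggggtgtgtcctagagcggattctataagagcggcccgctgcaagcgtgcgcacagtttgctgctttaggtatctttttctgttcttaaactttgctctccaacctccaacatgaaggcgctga
The Id1 window held CAGAC, beginning at its base 274, and the Id2 window held GCCGNCGC on the opposite strand, beginning at its base 277. The Id3 window held none of these letters. RefSeq windows were matched for 8 of the 10 genes (Acvr1 and Smad6 were not matched), and those of Smad1, Smad4, Smad5, Bmpr1a and Bmpr2 held none of the motifs either. Of all 33469 windows of this length, 50.1% held CAGAC, 11% GGCGCC and 9.34% GCCGNCGC, so that these matches are common letters and describe the sequence only.

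The values are MAS5 signals, the array software's estimate of hybridisation per probe set, scaled here so that every array has the same median. The median of all scaled signals was 33.8 and the highest scaled signal of control probe sets for RNA absent from the samples was 8.34, so a signal near or below that level cannot be told from background. Array medians before scaling lay between 33.0 and 36.6. The titles and a second label disagree on the site of ulna 1, 2, 3 and 4, which that label places in the calvaria. The gene Hoxa9, expressed in limb and trunk but not in the head, had scaled signals of 1.82 to 4.80 on the skull arrays and 60.4 to 79.0 on the limb arrays, so each array matched the site in its title.

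By their brightest probe sets the receptors Bmpr1a, Bmpr2 and Acvr1 and the substrates Smad1 and Smad5 were higher in the skull, and no Id gene passed the test. Both called genes were receptors, Bmpr1a and Bmpr2, with skull:limb (S:L) ratios of mean signal of 2.14 and 2.45. The third receptor, Acvr1, was higher by 1.63-fold, and Smad1 and Smad5 by 1.51-fold and 1.31-fold. The brightest probe sets of Smad4, Smad6, Id1, Id2 and Id3 did not pass. Bone holds many cell types, and in bulk RNA fewer cells of a type cannot be told apart from less RNA per cell.

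A probe set was called at a limma adjusted p below 0.05 over all 31042 probe sets together with a difference of at least 1 on the log2 scale, which is 2-fold. On this rule 2 of the 22 probe sets were called higher in the skull, against 2.89% of all probe sets, and 0 were called lower, against 3.36%. By the adjusted p alone, 8 were higher against a background of 9.59%, 1 was lower against 11.9%, and 13 passed in neither direction. All skull arrays lay above all limb arrays for 7 of the 22, against 9.44% of all probe sets, and below them for 1, against 11.7%. The log2 difference, skull minus limb, was above 0 for 21 of the 22 probe sets, with a median of 0.47, while the median over all probe sets was -0.01. With 1 brightest probe set per gene, 2 of the 10 genes were called higher and 0 lower, where 3.47% and 4.31% of all genes were, and by adjusted p alone 5 of the 10 were higher and 0 lower, against 12.9% and 16.6% of all genes.

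**Figure D1:**
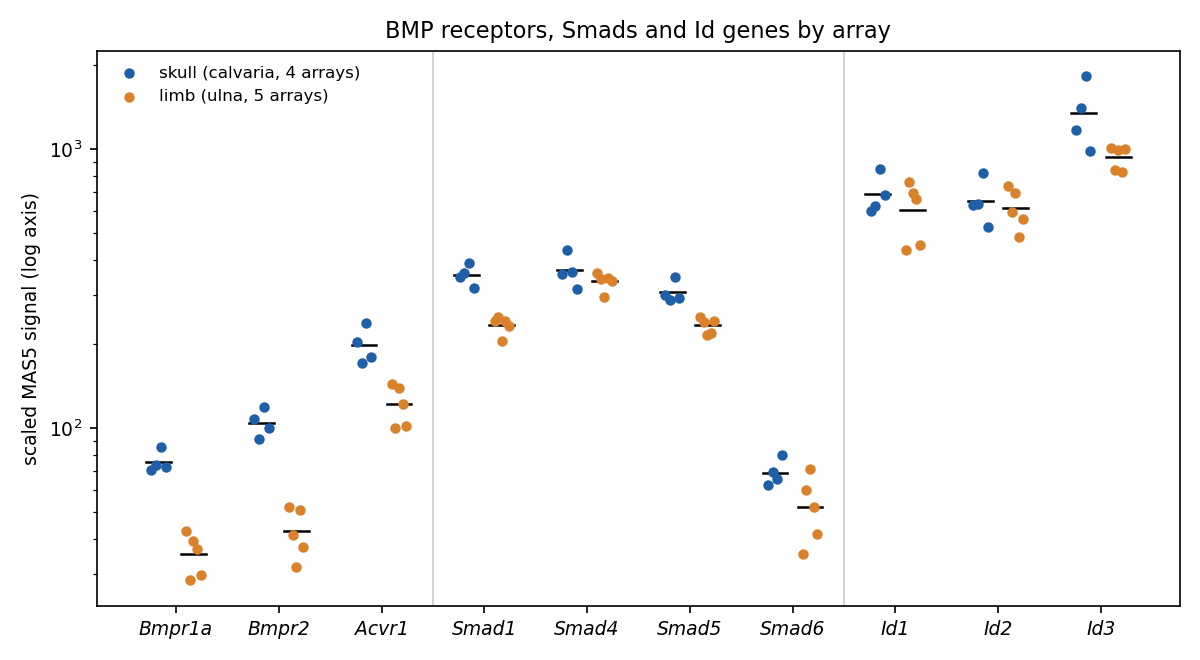
Scaled MAS5 signal (log axis, arbitrary units) of the brightest probe set of each gene on the 4 skull and 5 limb arrays, with a bar at the mean of each site and grey lines between receptors, Smads and Ids. Skull and limb points do not overlap for Bmpr1a, Bmpr2, Acvr1, Smad1 and Smad5, and overlap for the other 5 genes; heights of different genes are not comparable.

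Bmpr1a, a type I receptor, is read by a single probe set. Its scaled signals were 70.8, 73.9, 85.6 and 72.4 in the skull, against 42.7, 28.4, 39.2, 36.7 and 29.7 in the limb. The lowest skull array exceeded the highest limb array by a clear gap. The means were 75.7 ± 6.75 in the skull and 35.3 ± 6.15 in the limb (SD, n = 4 and 5), and the log2 difference was 1.11 ± 0.15 (SE, limma adjusted p = 0.000686, 95% interval 0.78 to 1.44). With a pseudocount of 16 in place of a floor on dim signals the difference was 0.84 and Bmpr1a was not called.

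Bmpr2 encodes the type II receptor of the family that is most devoted to BMPs. The paper already lists it as higher in the skull. On its brighter probe set (1376843_at) the skull arrays had signals of 107, 91.5, 119 and 99.8, against 52.0, 41.4, 31.8, 51.0 and 37.4 on the limb arrays. Again the sites did not overlap. The means were 104 ± 11.7 in the skull and 42.7 ± 8.70 in the limb (SD, n = 4 and 5), with a log2 difference of 1.31 ± 0.16 (SE, limma adjusted p = 0.000498), the largest among the 22 probe sets. The other Bmpr2 probe set (1394667_at) lay at or below the absent controls on 2 skull and 3 limb arrays and gave 0.61 ± 0.62 (SE, limma adjusted p = 0.562), which measures little. Where the 2 probe sets were averaged, Bmpr2 had a log2 difference of 0.96 and was no longer called (limma adjusted p = 0.0588).

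Acvr1, also called Alk2, is a type I receptor with 3 probe sets, all higher in the skull and all under 2-fold. The brightest (1379217_at) had signals of 203, 171, 238 and 179 in the skull, against 144, 100.2, 139, 122 and 102 in the limb. Its log2 difference was 0.71 ± 0.14 (SE, limma adjusted p = 0.00698), with no overlap between the sites. A second probe set (1398277_at) had signals of 81.3, 67.5, 99.3 and 70.1 in the skull, against 42.4, 43.5, 40.2, 49.2 and 30.6 in the limb. Its difference of 0.95 ± 0.17 (SE, limma adjusted p = 0.00325) stopped just short of 2-fold, and reached 1.00 to 1.02, and so a call, without skull 2, skull 4 or limb 4. The third (1385069_at) overlapped between the sites and gave 0.64 ± 0.19 (SE, limma adjusted p = 0.0399). It no longer passed without any 1 of skull 2, 3 or 4 or limb 1, 2, 3 or 5 (limma adjusted p of 0.0634 to 0.109), and still passed without skull 1 (0.00764) or limb 4 (0.0342). The 3 probe sets were not shown to differ among themselves in their skull minus limb difference (exact permutation adjusted p of 0.476 to 0.841).

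By their brightest probe sets, Bmpr1a and Bmpr2 differed between the sites by more than Acvr1 did. This was tested on the log2 difference between 2 genes within each array, so that each array is its own control, by a two-sided exact permutation over the splits into 4 and 5 arrays, with p adjusted over 12 pairs of genes of the same role. The skull minus limb difference of Bmpr1a exceeded that of Acvr1 by 0.40 ± 0.07 (SE, exact p = 0.0159, adjusted p = 0.0476), and that of Bmpr2 exceeded it by 0.60 ± 0.16 (SE, exact p = 0.0159, adjusted p = 0.0476). An exact p of 0.0159 is the smallest that these splits give. A pair reaching it alone would not pass the adjustment over 12 pairs. The adjusted p of 0.0476 rests on 4 pairs sharing that smallest p. The other Acvr1 probe sets, among them 1398277_at with its difference of 0.95, were not tested against Bmpr1a or Bmpr2. Bmpr1a and Bmpr2 were not told apart, with a difference of -0.20 ± 0.16 (SE, exact p = 0.302, adjusted p = 0.452). With 1 array left out the exact test cannot give less than 0.0286 or 0.0357, and the adjusted p of the 4 pairs that passed (these 2 and those of Smad1 with Smad4 and Id2 with Id3) then lay between 0.0686 and 0.107 with the direction kept.

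**Figure D2:**
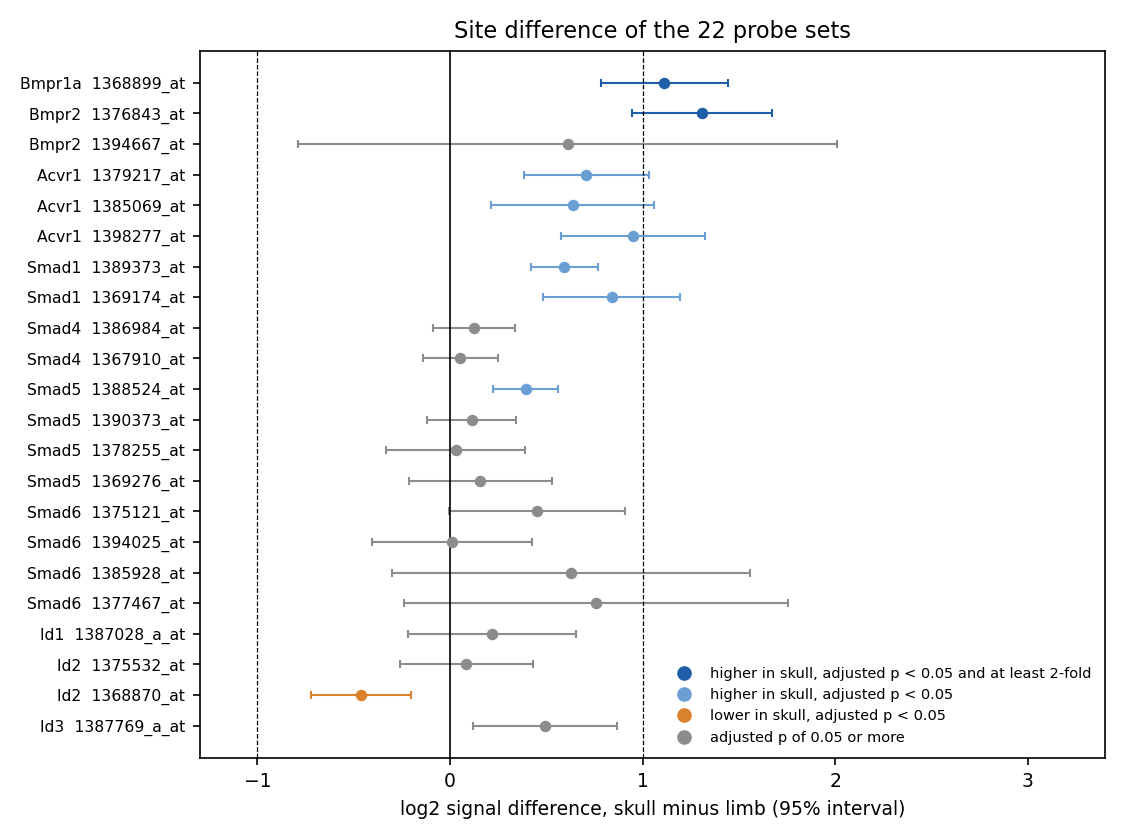
Skull minus limb log2 difference of the 22 probe sets with the 95% interval of the fit, grouped by gene, and dashed lines at 2-fold. Bmpr1a (1.11) and the brighter Bmpr2 probe set (1.31) lie past 2-fold, 6 further probe sets of Acvr1, Smad1 and Smad5 pass the adjusted p below 2-fold, and 1 Id2 probe set lies on the limb side (-0.46).

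Among the Smads, Smad1 showed the largest difference by the brightest probe set. Smad1 is a direct substrate of the type I BMP receptors. On its brighter probe set (1389373_at) it had signals of 348, 361, 390 and 317 in the skull, against 242, 251, 205, 242 and 233 in the limb. The sites did not overlap and the log2 difference was 0.59 ± 0.08 (SE, limma adjusted p = 0.000655). The dimmer probe set (1369174_at) had 67.7, 62.4, 73.5 and 57.1 in the skull, against 32.1, 36.9, 29.0, 47.5 and 38.3 in the limb, again without overlap, and a log2 difference of 0.84 ± 0.16 (SE, limma adjusted p = 0.00467). The 2 probe sets of Smad1 were not shown to differ in this (exact permutation p = 0.0952, adjusted p = 0.357 over 15 pairs of probe sets of the same gene).

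Smad5, the close relative of Smad1 with the same receptors, was higher in the skull by 1 of its 4 probe sets. The brightest (1388524_at) had signals of 299, 288, 349 and 292 in the skull, against 251, 241, 215, 219 and 243 in the limb. No limb array reached the lowest skull array, and the log2 difference was 0.39 ± 0.07 (SE, limma adjusted p = 0.00508, 95% interval 0.22 to 0.56). The other 3 gave log2 differences of 0.03 to 0.16 with limma adjusted p of 0.519 to 0.934, and their sites overlapped. The brightest exceeded 1390373_at by 0.28 (exact permutation p = 0.0317) and 1378255_at by 0.36 (exact permutation p = 0.0476), and both had an adjusted p of 0.238, so the probe sets of Smad5 were not shown to differ. Averaged over its 4 probe sets, Smad5 had a log2 difference of 0.17 and did not pass (limma adjusted p = 0.201).

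Smad4, the partner that all receptor-activated Smads share, differed little. Its brighter probe set (1386984_at) had signals of 356, 435, 363 and 316 in the skull, against 360, 342, 295, 345 and 336 in the limb, with skull 4 below 4 of the limb arrays. The log2 difference was 0.12 ± 0.09 (SE, limma adjusted p = 0.431) with a 95% interval of -0.09 to 0.34. The other probe set (1367910_at) gave 0.05 ± 0.09 (SE, limma adjusted p = 0.729) with an interval of -0.14 to 0.25, so for both a 2-fold difference lay outside the interval.

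The skull minus limb difference of Smad1 exceeded that of Smad4 by 0.47 ± 0.08 (SE, exact permutation p = 0.0159, adjusted p = 0.0476), and the within-array values of the sites did not overlap. Smad1 exceeded Smad5 by 0.20 ± 0.06 (SE, exact permutation p = 0.0317, adjusted p = 0.0762), which did not pass. Nor did Smad4 against Smad5 (-0.27 ± 0.13 SE, exact permutation p = 0.0794, adjusted p = 0.159). By this test the substrate Smad1 and the common partner Smad4 differed in how their signals compared between the bones. The adjusted p again rests on the pairs that share the smallest exact p. Smad5 lay between them without being told from either.

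Smad6, the inhibitory Smad, had 4 probe sets and none passed. The brightest (1375121_at) had signals of 62.4, 69.3, 65.5 and 79.7 in the skull, against 35.3, 60.1, 71.0, 52.1 and 41.8 in the limb. The limb arrays spanned a wide range, limb 3 lay above 3 of the skull arrays, and the log2 difference was 0.45 ± 0.20 (SE, limma adjusted p = 0.162, 95% interval -0.01 to 0.91). The probe set 1394025_at gave 0.01 ± 0.18 (SE, limma adjusted p = 0.987). The remaining 2, 1385928_at and 1377467_at, gave 0.63 and 0.76 with limma adjusted p of 0.347 and 0.284, and 1377467_at lay at or below the absent controls on 2 skull and 4 limb arrays.

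**Figure D3:**
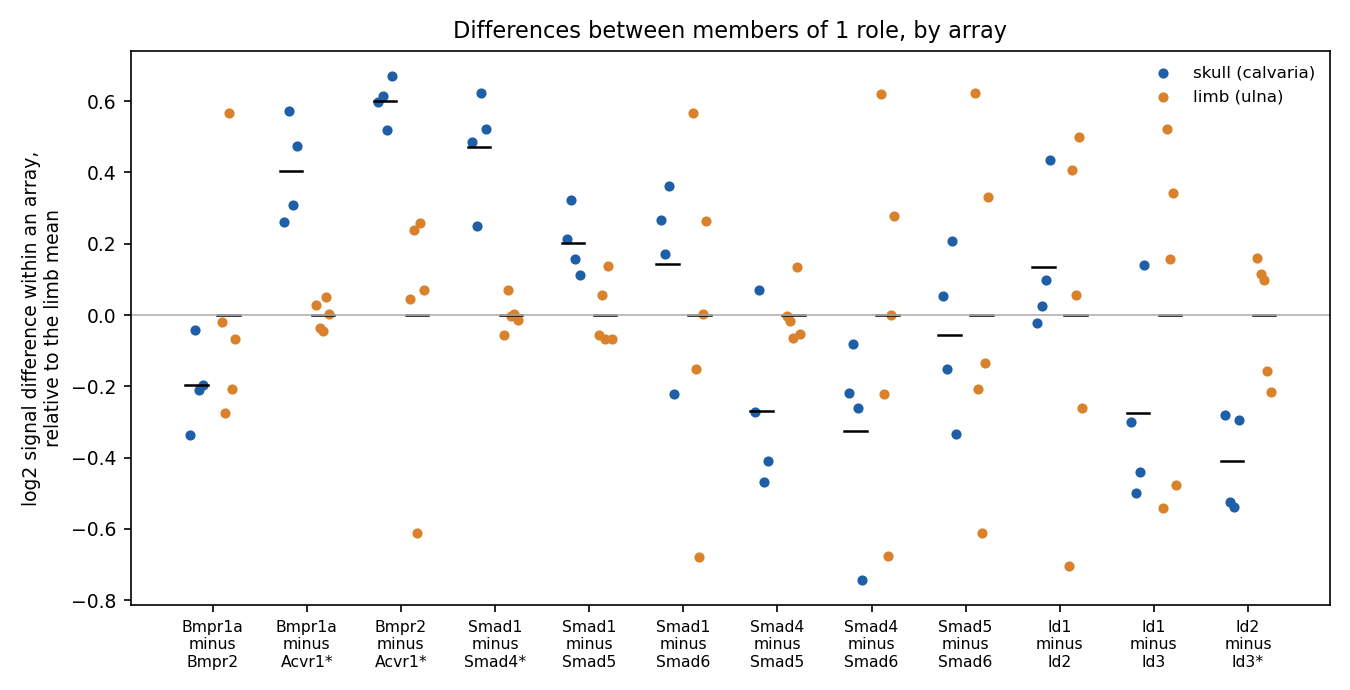
Log2 signal difference within each array between the brightest probe sets of 2 genes of the same role, set to 0 at the limb mean, for all 12 pairs, with bars at the site means and stars at an adjusted exact p below 0.05. Skull points lie apart from limb points for Bmpr1a and Bmpr2 against Acvr1, Smad1 against Smad4 and Id2 against Id3, and overlap for the other 8 pairs.

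The Id genes had bright signals at both sites, and none passed by its brightest probe set. Id1, the target most often used to read BMP activity, had signals of 599, 627, 850 and 687 in the skull, against 437, 765, 698, 663 and 454 in the limb. Of the skull arrays 3 lay within the limb range, and limb 1 and limb 5 lay below every skull array. Its log2 difference was 0.22 ± 0.19 (SE, limma adjusted p = 0.498), with a 95% interval of -0.22 to 0.65.

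Id2 had 2 probe sets. The brighter (1375532_at) had signals of 628, 637, 821 and 526 in the skull, against 735, 596, 693, 485 and 562 in the limb, with overlapping sites and a log2 difference of 0.09 ± 0.15 (SE, limma adjusted p = 0.763, 95% interval -0.26 to 0.43). The dimmer (1368870_at) was the only one of the 22 that passed as lower in the skull, with 125.8, 115, 122 and 114 in the skull, against 188, 142, 135, 173 and 192 in the limb. Every limb array lay above every skull array, at an S:L ratio of 0.718 and a log2 difference of -0.46 ± 0.11 (SE, limma adjusted p = 0.0189). Without skull 2 or without skull 4 it no longer passed (limma adjusted p = 0.0542 and 0.05003). The differences of the 2 Id2 probe sets stood 0.55 ± 0.20 apart (SE, exact permutation p = 0.0476, adjusted p = 0.238), so they were not shown to differ, and Id2 as a gene has no settled direction here.

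Id3 had signals of 1170, 1406, 1829 and 988 in the skull, against 1008, 845, 993, 828.9 and 1002 in the limb. Skull 4 lay within the limb range and the other 3 skull arrays above it. The means were 1348 ± 363 in the skull and 935 ± 90.2 in the limb (SD, n = 4 and 5), and the log2 difference of 0.49 ± 0.17 (SE) did not pass (limma adjusted p = 0.0653, 95% interval 0.12 to 0.87). Without skull 4 it was 0.63 and passed (limma adjusted p = 0.0192), and it also passed under 6 other processing settings. The skull minus limb difference of Id2 was smaller than that of Id3, by -0.41 ± 0.11 (SE, exact permutation p = 0.0159, adjusted p = 0.0476). Id1 was not told apart from Id2 (0.13 ± 0.24 SE, exact permutation p = 0.714) or from Id3 (-0.28 ± 0.26 SE, exact permutation p = 0.397).

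Ids hold back the E proteins, and the signals of the genes for these moved in both directions by adjusted p. Tcf4, the brightest, was higher in the skull (0.63 ± 0.12 SE, limma adjusted p = 0.00409) and Tcf3 was lower (-0.50 ± 0.12 SE, limma adjusted p = 0.0190). The paper lists Tcf3 as higher in the skull, and whether its entry reads the same gene was not tested. Tcf12 had a difference of 0.31 ± 0.14 (SE, limma adjusted p = 0.162). None of these 3 reached 2-fold.

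By role, the 6 receptor probe sets had a median log2 difference of 0.83, and 5 of them, 3 of these of Acvr1, were higher by adjusted p. The 12 Smad probe sets had a median of 0.28 with 3 higher and none lower. For the 4 Id probe sets the median was 0.15, with 0 higher and 1 lower, where 9.59% of all probe sets were higher and 11.9% lower. These medians were not tested against each other, and probe sets of the same gene share their RNA.

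Skull 3 was often the highest of the skull arrays. It was highest in 15 of the 22 probe sets (68.2%), where over all probe sets it was highest in 30.4%. Of the brightest probe sets, those of Smad4 and Smad6 peaked on another skull array and the other 8 on skull 3. Skull 3 also had the largest 3′ to 5′ log2 ratios of the control probe sets for beta-actin (1.04) and Gapdh (0.59), a reading of RNA integrity. Those ratios were 0.75 to 1.04 for beta-actin on the skull arrays and 0.57 to 0.86 on the limb arrays. For Gapdh they were 0.28 to 0.59 on the skull arrays and 0.21 to 0.37 on the limb arrays. Their part in the results was not tested. Without skull 3, Bmpr1a and Bmpr2 remained the 2 calls.

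After removing the site means, the 10 brightest probe sets showed little common movement over the 9 arrays, with a median Pearson r of 0.13 over 45 pairs and 30 of them above 0. Bmpr1a and Acvr1 followed each other most closely (r = 0.90), and Id2 followed Id3 (0.81). Bmpr2 and Smad6 had the lowest value (-0.60). These correlations share arrays and scaling and are given as description only.

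Across the 9 arrays without removal of the site means, the genes most like Bmpr1a among 9481 with a mean signal at or above the median were Heph (r = 0.99), Ecrg4 (0.98) and Yif1a (0.98). Those most like Bmpr2 were Kdr (0.99), Pam (0.99) and Icam1 (0.99). Kdr, the main VEGF receptor of endothelium, is also in the endothelial marker list. After removing the site means, r was 0.85 for Heph, 0.86 for Ecrg4 and 0.89 for Yif1a with Bmpr1a. With Bmpr2 it was 0.93 for Kdr, 0.91 for Pam and 0.90 for Icam1. All were picked as the highest of 9481 genes over 9 arrays that share a site difference, and are given as description only.

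Marker genes of several cell types, each read by its brightest probe set, also differed between the bones. The mean log2 signal of 9 osteoblast and bone matrix genes was 11.49 to 11.88 on the skull arrays and 10.93 to 11.16 on the limb arrays, with 3 of 9 called higher. That of 8 osteoclast genes was 8.68 to 9.16 in the skull and 7.13 to 7.61 in the limb, with 6 of 8 called higher. For 10 endothelial genes it was 7.38 to 7.40 in the skull and 6.74 to 7.06 in the limb, with 2 called higher and 1 lower, and for 6 macrophage genes 8.05 to 8.46 in the skull and 7.47 to 7.62 in the limb, with 2 called higher. These lists moved in the same direction as the receptors and Smad1.
Muscle, erythroid, megakaryocyte and neutrophil genes were lower in the skull. The mean of 16 skeletal muscle genes was 3.21 to 3.69 on the skull arrays and 8.80 to 10.23 on the limb arrays, with 15 of 16 called lower in the skull. The remaining one, Myh1, was higher there by the brightest of its 5 probe sets (0.59 ± 0.12 SE, limma adjusted p = 0.00653). The mean signals of that probe set were 601 in the skull and 399 in the limb. The other probe sets of Myh1 were not read, and whether this signal comes from muscle was not tested. On all 4 skull arrays Tnnc2, Myh4 and Mybpc1 lay at or below the absent controls. Also called lower were 7 of 9 erythroid, 7 of 7 megakaryocyte and platelet and 4 of 6 neutrophil genes, and 0 of 4 B cell genes were called. Of the 6 osteocyte genes 0 were called in either direction by the brightest probe set. Without the 2-fold rule, 2 of them were higher and 0 lower by adjusted p, against 12.9% and 16.6% of all genes. Sost, which the paper lists as higher in the skull, has 2 probe sets, and only the brighter was read (0.19 ± 0.15 SE, limma adjusted p = 0.451). The lists for chondrocytes, adipocytes, and fibroblasts and tendon had 1 of 7, 3 of 6 and 1 of 8 called lower, with 1 of the last called higher. The part of these cell types in the results was not tested. Scaling each array without the muscle and marrow genes left the counts of Bmpr1a to Id3 probe sets at 2 called, 8 higher and 1 lower. This changes only the scale of each array, and hardly moved it. The log2 difference of Bmpr1a went from 1.112 to 1.108 and that of Acvr1 (1379217_at) from 0.708 to 0.704. The part of muscle and marrow cells was thus not tested by this scaling.

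Of the rest of the pathway, 61 of 76 listed genes were measured. By their brightest probe set 8 genes passed the call towards the skull and 3 towards the limb, against the 3.47% and 4.31% of all genes given above, and their median log2 difference was 0.38. By adjusted p alone 22 of the 61 were higher and 6 lower, where 12.9% and 16.6% of all genes were. Of the called genes, the paper already lists Bmp3, Nog, Dlx3 and Dlx5 as higher in the skull and Bmp5 as lower.

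Among 10 ligands, Bmp3 was higher (S:L ratio 3.38, log2 difference 1.78 ± 0.15 SE, limma adjusted p = 7.65e-05), as was Bmp8a (2.09, 1.03 ± 0.17 SE, limma adjusted p = 0.00213). Bmp5 was lower (limma adjusted p = 0.000174), with a mean signal of 7.24 in the skull and 32.8 in the limb. The size of that difference is not resolved, because the skull mean lay below the absent controls. Without the 2-fold rule, 5 of the 10 ligands were higher and 1 lower by adjusted p, against 12.9% and 16.6% of all genes. Among 11 antagonists and modulators, 2 were called, both higher, and by adjusted p alone 4 were higher and 0 lower. Nog, which encodes the BMP-trapping protein noggin, had a log2 difference of 1.40 ± 0.17 (SE, limma adjusted p = 0.000429). Bmper had 2.11 ± 0.40 (SE, limma adjusted p = 0.00494), and 3 limb arrays lay at or below the absent controls, so its size is uncertain. The protease Bmp1, which processes procollagen and cleaves the BMP antagonist chordin, was higher by 1.35 ± 0.12 (SE, limma adjusted p = 0.000101). Ligands and their antagonists were thus both found among the genes higher in the skull.

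Of 13 other receptors and co-receptors, Tgfbr1, a type I receptor for TGF-beta, was just past 2-fold (1.01 ± 0.13 SE, limma adjusted p = 0.000735). The BMP co-receptor Hjv, known from skeletal muscle and liver, was lower (limma adjusted p = 0.000250), with a mean signal of 5.08 in the skull and 164 in the limb. Since 3 skull arrays lay at or below the absent controls, the size of its difference is not resolved. Its direction is that of the skeletal muscle list given above. Without the 2-fold rule, 4 of the 13 were higher and 1 lower by adjusted p, against 12.9% and 16.6% of all genes.

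None of the 4 other Smads was called, but Smad3 was higher by adjusted p (0.79 ± 0.10 SE, limma adjusted p = 0.000549), while Smad2, like Smad3 a substrate of TGF-beta and activin receptors, had -0.16 ± 0.07 (SE, limma adjusted p = 0.130). The other 2 of that list also passed p in the skull direction. Of 12 regulators of Smads, Nedd4l, a ubiquitin ligase, was lower (-1.06 ± 0.12 SE, limma adjusted p = 0.000396), and by adjusted p alone 2 were higher and 3, Nedd4l among them, lower.

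Among 7 further BMP targets, the homeobox genes Dlx3 and Dlx5 were called higher, with log2 differences of 1.11 ± 0.18 (SE, limma adjusted p = 0.00201) and 1.15 ± 0.15 (SE, limma adjusted p = 0.000666). The other 5 did not pass. Whether Dlx3 and Dlx5 differed from the Id genes in this was not tested.

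**Figure D4:**
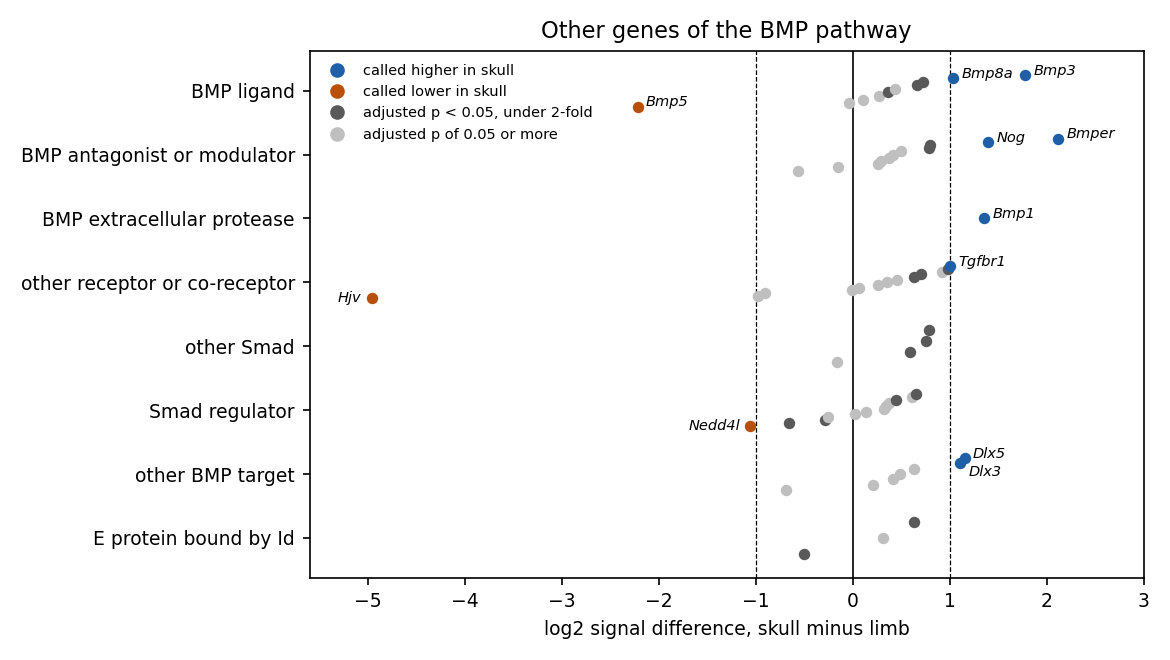
Skull minus limb log2 difference of the brightest probe set of each of 61 other genes of the BMP pathway, by list, with dashed lines at 2-fold. The 8 genes called higher and the 3 called lower are named; the positions of Hjv and Bmp5 rest on skull signals near background.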

How the data were processed

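Bone RNA from 4 skull and 5 limb extracts was hybridised to Affymetrix rat whole-genome arrays after one-cycle labelling. The authors deposited linear MAS5 signal intensities after bringing every array to 1 trimmed mean. Of the 31042 probe sets other than 57 controls, 20826 name 1 gene in the platform annotation. Each array was divided by its median, multiplied by the mean of the medians, floored at the 10th percentile (2.51) and taken to log2. Skull was compared with limb by limma (version 3.58.1, R 4.3.3; lmFit, eBayes with an intensity trend) over all 31042 probe sets with Benjamini-Hochberg adjustment. S:L ratios use unfloored means. Pairs of probe sets were compared by exact permutation in scipy (1.17.1). On simulated data 98% of 200 changed probe sets were recovered and 3 unchanged ones were called, out of 31042. How recovery depends on the size of a difference or on brightness was not tested. Recovery at differences as small as those of Smad4, Smad6 and the Id genes was therefore not tested either. The genes and lists were chosen with earlier results of these data known. All 10 genes with every probe set, called pathway genes or otherwise the 2 brightest of a list, the 3 genes most like each called gene, and Hoxa9 were named. Tcf3 and the correlated pairs were picked after their values were seen. Sites were grouped by titles. The effect of 20 alternative settings is given in the closing section.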

Additional observations from a re-analysis of the deposited data

Results flagged for a closer look

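Of 44 sets of arrays checked (each of the 22 probe sets at each site), 0 had a highest or lowest array farther from the rest than Dixon's 95% limit allows, where chance gives about 1 in 20.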

How the results depend on the processing

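Differences of the 22 probe sets were recomputed 414 times under 19 alternatives. Direction and call were kept in 399, a call was lost in 1 and gained in 4, and the sign changed in 10, each of a difference near 0. With a pseudocount of 16 and no floor, 1 probe set was called higher, since Bmpr1a fell to 0.84. With the deposited scaling, and without skull 2, skull 4 or limb 4, 3 were called, the additional one being Acvr1 (1398277_at). By the mean of the probe sets of a gene, a 20th alternative, 1 gene was called higher, Bmpr2 no longer being called (0.96, adjusted p = 0.0588), Smad5 did not pass (0.17, 0.201) and Id3 passed (0.0472). With replicate number as a block, which leaves out limb 5, 2 remained called, 5 were higher by adjusted p and 0 lower, and Acvr1 (1385069_at), Smad1 (1369174_at, adjusted p = 0.0606) and Smad5 (1388524_at, 0.0524) no longer passed. The paper describes skull and limb RNA as taken from groups of rats, so extracts of the 2 sites may share animals. No label ties the numbers to shared animals, and deviations of same-numbered arrays correlated at -0.01 to 0.04. Leaving out single arrays, the count lower by adjusted p was 0 to 1 and that higher by adjusted p was 7 to 8. Over the same settings the difference was -0.017 to 0.097 for Smad4 (1367910_at), -0.070 to 0.140 for Smad5 (1378255_at), -0.115 to 0.124 for Smad6 (1394025_at) and -0.031 to 0.184 for Id2 (1375532_at). Quantile normalization turned Smad6 (1394025_at) to -0.003. Id3 also passed with the pseudocount, quantile normalization, the deposited scaling, a filter on dim probe sets, array weights or without skull 4, at adjusted p of 0.00905 to 0.0317. The cause of these changes was not tested. The filter on dim probe sets gave no value for 4 of the 22. Signals near the absent controls limit 1394667_at of Bmpr2 and 1377467_at of Smad6. The number of arrays, 4 and 5, limits the precision of every difference.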
